A study of Homo sapiens with 4 samples.

Results

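The 9 genes described here encode histone variants: H2AX, H2AZ1, H2AZ2, H2AJ, MACROH2A1, H3-3A, H3-3B, CENPA and H1-10. They were taken by symbol from the 78932 gene rows of an RNA-seq count table, and 8 of them were among the 18680 genes with enough counts to be tested. The study asked what depletion of LINC01432, a long noncoding RNA, does in multiple myeloma cells. RPMI 8226, an established line grown from a patient with multiple myeloma, was transfected with an LNA directed at LINC01432 (2 libraries, 50 nM) or with a control LNA (2 libraries, dose not stated separately), and RNA was taken after 72 h. An LNA is an antisense oligonucleotide with locked nucleic acid bases that pairs with its target RNA. All 4 libraries came from this 1 cell line, 1 LNA is named for each group, and nothing in the labels says whether the 2 libraries of each group are separate cultures, so the p-values measure the spread between libraries, which may be technical.

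Histones package DNA into nucleosomes. The bulk of them come from clustered genes that are switched on with DNA replication and whose mRNAs end in a stem-loop, without a poly(A) tail. Variants come from separate genes that are expressed outside replication as well. Dedicated chaperones place some of them at particular sites: H2A.Z and H3.3 at promoters, enhancers and other active regions, and CENP-A at centromeres. H2AX lies throughout the genome, and the kinases ATM, ATR and DNA-PK phosphorylate it near DNA breaks. Most variant mRNAs are polyadenylated, and H2AX is a case apart in that it makes both a stem-loop and a polyadenylated form. Counts per gene do not separate those 2 forms, nor the splice isoforms of MACROH2A1 and H2AZ2.

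H2AX and H1-10 were the 2 members called higher, though H1-10 did not pass after correction for the GC content of genes. The promoters of these 2 genes are shown. They differ from each other, and their motifs are not particular to them. Each RefSeq window (GRCh38.p14) runs from 250 bases before to 50 bases after the annotated start, 5′ to 3′ on the strand of the gene, and capitals mark CCAAT boxes and TATA boxes.
H2AX, chr11:119095416-119095715, minus strand: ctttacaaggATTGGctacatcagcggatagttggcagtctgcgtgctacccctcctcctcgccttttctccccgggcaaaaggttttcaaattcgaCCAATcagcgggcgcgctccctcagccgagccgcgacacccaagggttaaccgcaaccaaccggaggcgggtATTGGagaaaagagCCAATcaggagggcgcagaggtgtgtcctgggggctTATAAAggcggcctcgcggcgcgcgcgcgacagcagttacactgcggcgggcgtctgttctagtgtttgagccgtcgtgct
H1-10, chr3:129316237-129316536, minus strand: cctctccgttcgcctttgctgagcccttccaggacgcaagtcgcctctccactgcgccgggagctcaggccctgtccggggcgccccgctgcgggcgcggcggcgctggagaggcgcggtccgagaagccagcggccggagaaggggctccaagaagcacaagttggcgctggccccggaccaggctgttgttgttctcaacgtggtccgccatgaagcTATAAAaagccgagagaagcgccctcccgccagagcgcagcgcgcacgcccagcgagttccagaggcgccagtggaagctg
The H2AX window held 4 CCAAT boxes (CCAAT, or ATTGG where it lies on the other strand) and a TATA box (TATAAA) from position -31 to -26. The H1-10 window held the TATA box at the same position and 0 CCAAT boxes. Of 35116 RefSeq promoter windows of this length, 34.6% held at least 1 CCAAT box, 11.5% a TATA box, and 0.991% at least 4 CCAAT boxes. A window with at least 4 CCAAT boxes and a TATA box was found in 42 of them (0.12%), at H2AX and also at H3-3B, which did not pass the test. H2AZ1 had 3 CCAAT boxes and a TATA box from -31 to -26, and H2AZ2 had 4 CCAAT boxes and 0 TATA boxes. Neither motif thus separated the members called higher from the others. Both strands were searched, also for the GC box (GGGCGG, 45.0% of windows), the CHR element (TTTGAA, 15.2%) and the cyclic AMP response element (TGACGTCA, 1.85%). Among these, H2AX held a CHR element on the other strand from -164 to -159, and H1-10 held no match. A match in letters is a description and not a site of binding.

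H2AX owes its damage signal to a serine near its end. The last 30 bases of its coding sequence (chromosome 11, bases 403 to 432 of the coding sequence in GENCODE 29) are shown with the codon of that serine in capitals, residue 139 when the first methionine is not counted.
H2AX, end of the coding sequence: aaggccacccaggccTCCcaggagtactaa
The codon is followed by 3 more codons and the stop codon.

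H3-3A and H3-3B are a pair of genes for the same protein, H3.3. Their first 90 coding bases are shown with the 21 bases that differ in capitals. Such differences bear on reads from the coding sequence, which is only a part of the exons (3146 bases for H3-3A and 6134 for H3-3B).
H3-3A, chromosome 1: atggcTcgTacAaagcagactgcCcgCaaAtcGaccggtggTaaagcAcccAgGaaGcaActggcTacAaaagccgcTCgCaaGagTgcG
H3-3B, chromosome 17: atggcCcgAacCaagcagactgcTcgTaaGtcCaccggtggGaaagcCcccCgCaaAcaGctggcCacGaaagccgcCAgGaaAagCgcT
Over the whole coding sequence of 411 bases, 88 bases differed and 0 of 136 residues did, and the longest identical run was 14 bases. H2AZ1 and H2AZ2, which encode H2A.Z.1 and H2A.Z.2, differed in 76 of 387 coding bases and in 3 of 128 residues, with a longest identical run of 23 bases.

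The libraries held 20873393 to 29161298 gene counts, and a count of 3 corresponded to 0.103 to 0.140 CPM, the count scaled to the size of the library with TMM. LINC01432 itself had 8.98 and 9.88 CPM in LINC01432 LNA libraries, against 20.5 and 17.9 CPM in control LNA libraries, a log2 fold change of -1.02 (SE 0.11, edgeR adjusted p = 0.000228). Plasma cell markers were present in every library (summed level 2567 and 2841 CPM in LINC01432 LNA libraries, 2819 and 2941 CPM in control LNA libraries, 9 of 9 at 1 CPM or more). Epithelial markers, mainly EPCAM and KRT18, summed to 98.7 to 117 CPM, and T and natural killer cell markers to at most 0.83 CPM. Fold changes in all genes moved with the GC content of the exons: among 10 equal groups of genes ordered by GC content, the group with the highest had a median log2 fold change of 0.37 and that with the lowest of -0.14. Values after removal of this trend are given as GC-corrected. In cells measured in bulk, fewer cells of a kind and less RNA per cell cannot be told apart.

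In the edgeR quasi-likelihood test over all genes (Benjamini-Hochberg adjusted p under 0.05), 2 of the 8 tested members were higher with the LINC01432 LNA, 0 were lower and 6 did not pass (1 was lower at an unadjusted p under 0.05, and by DESeq2 1 was called lower). Of all genes tested, 11.9% were called, 7.5% as higher and 4.37% as lower. The members were selected on their symbols, with the fold changes of this same comparison already known, so their levels and calls are a description, and their count supports nothing. Their median log2 fold change was -0.00, beside 0.01 over all genes tested. After GC correction 1 member was called, as higher, where 10.1% of all genes were called, 5.7% as higher and 4.39% as lower. The 2 groups of libraries did not overlap for 7 of the 8 tested members, as for 54.1% of all genes tested.

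**Figure D1:**
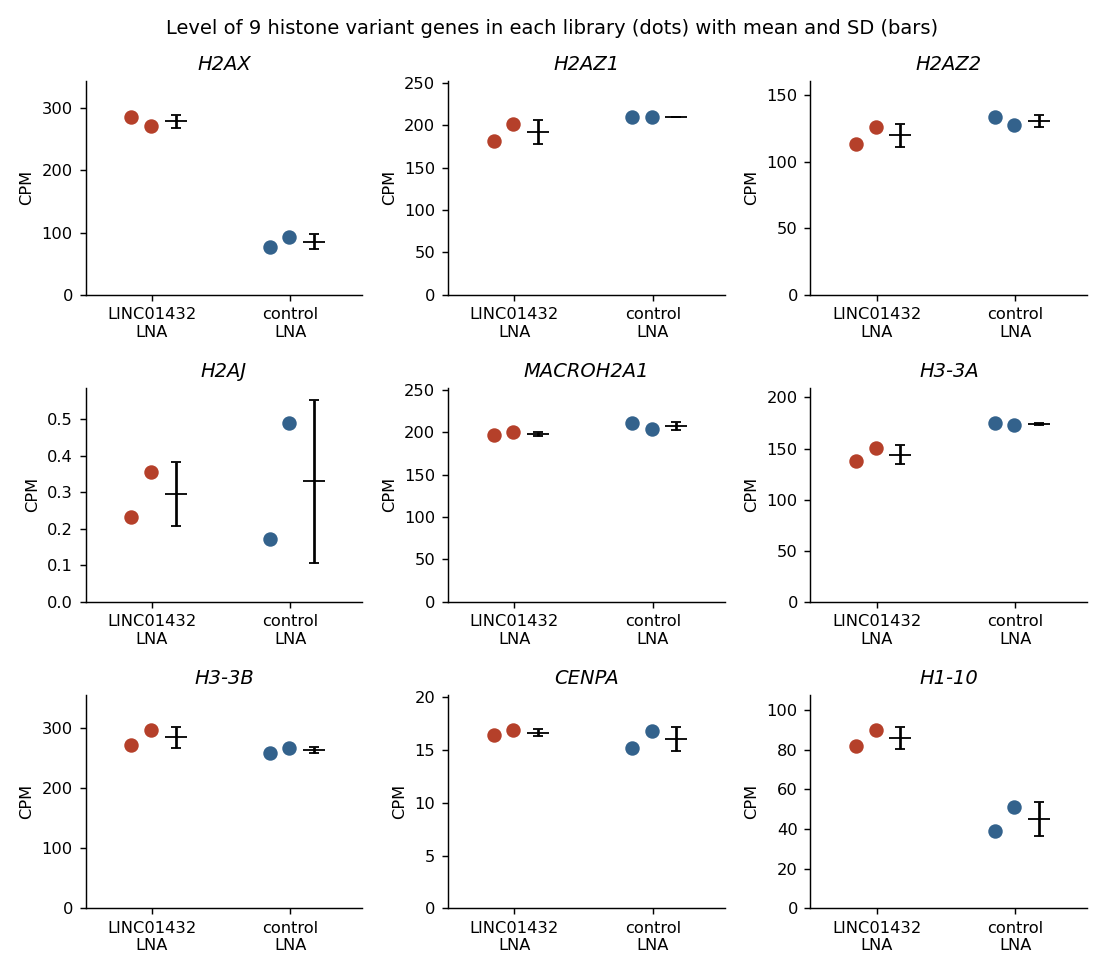
Level of each of the 9 histone variant genes in CPM (vertical axis, from 0), with 1 dot per library and the mean with SD as bars, LINC01432 LNA on the left of each panel and control LNA on the right. H2AX stood at 286 and 272 CPM with the LINC01432 LNA and at 76.8 and 93.6 CPM with the control LNA, the widest separation of the 9 panels, and H1-10 was the other gene whose groups stood far apart.

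H2AX, the H2A variant that carries the damage mark, was counted 6155 and 6873 times in LINC01432 LNA libraries, against 2241 and 2303 times in control LNA libraries. Its level was 286 and 272 CPM with the LINC01432 LNA and 76.8 and 93.6 CPM with the control LNA, so both LINC01432 LNA libraries lay far above both control libraries. The means were 279 ± 10.3 CPM and 85.2 ± 11.9 CPM (SD, n = 2 each), a 3.28-fold rise (log2 fold change 1.71, SE 0.10, edgeR adjusted p = 4.01e-06). By fold change it stood at place 123 of the 1401 genes called higher. The gene (ENSG00000188486) lies on chromosome 11 at 119093854 to 119095467, minus strand, and shares no exon base with another annotated gene. Its exons hold 66.4% GC, within the highest of the 10 GC groups, and after GC correction the log2 fold change was 1.21 (SE 0.09, edgeR adjusted p = 7.14e-05), a 2.31-fold rise. Over the 12 other fits the log2 fold change ran between 1.21 and 1.85, and H2AX was called in each. With 2 libraries in each group an exact permutation test of 1 gene cannot go below p = 0.333, so the call rests on the spread that edgeR pools over genes.

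The 3 genes of similar level (mean CPM within 2-fold of H2AX, 1938 candidates) that lay closest to H2AX in their centred log2 CPM over the 4 libraries were HELZ2, IFIT3 and IRF7. HELZ2 was nearest, at a Euclidean distance of 0.124, with 218 and 223 CPM in LINC01432 LNA libraries and 56.9 and 68.7 CPM in control LNA libraries. IFIT3 followed at a distance of 0.262, with 243 and 295 CPM in LINC01432 LNA libraries and 68.8 and 88.3 CPM in control LNA libraries. IRF7 lay at a distance of 0.317, with 226 and 272 CPM in LINC01432 LNA libraries and 79.8 and 94.0 CPM in control LNA libraries. The likeness is over 4 libraries in 2 groups and so mainly restates a fold change of similar size: 1.81 for HELZ2, 1.78 for IFIT3 and 1.52 for IRF7 on the log2 scale.

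H2AZ1 encodes the main form of H2A.Z, which the SRCAP and p400 complexes put into nucleosomes near promoters. It had 182 and 202 CPM in LINC01432 LNA libraries and 210.25 and 210.28 CPM in control LNA libraries. Both LINC01432 LNA libraries lay below the control libraries, but the log2 fold change of -0.13 (SE 0.08) did not pass (edgeR adjusted p = 0.358). H2AZ2, the second H2A.Z gene, had 113 and 126 CPM in LINC01432 LNA libraries and 134 and 127 CPM in control LNA libraries, with a log2 fold change of -0.13 (SE 0.08, edgeR adjusted p = 0.388). The GC-corrected log2 fold changes were -0.11 for H2AZ1 and -0.00 for H2AZ2. Without LINC01432 LNA replicate 2 both passed, at -0.23 for H2AZ1 (edgeR adjusted p = 0.000275) and -0.22 for H2AZ2 (edgeR adjusted p = 0.00137). The ratio of H2AZ1 to H2AZ2 counts was nearly the same everywhere, 1.603 and 1.607 in LINC01432 LNA libraries and 1.573 and 1.653 in control LNA libraries.

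MACROH2A1, an H2A variant with a large macrodomain that is enriched in silent chromatin, had 196 and 200 CPM in LINC01432 LNA libraries and 210 and 204 CPM in control LNA libraries. The log2 fold change of -0.06 (SE 0.08) did not pass (edgeR adjusted p = 0.679) and was 0.02 when GC-corrected, and 30.9% of its exon bases overlap other annotated genes. H2AJ, an H2A variant that differs from the bulk protein mainly at its end, was close to absent, with 5 and 9 counts in LINC01432 LNA libraries and 5 and 12 counts in control LNA libraries. It was too low to test, and no difference was detectable at this depth.

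H3-3A and H3-3B encode the H3 variant that HIRA and the ATRX-DAXX complex deposit outside replication. H3-3A had 137 and 151 CPM in LINC01432 LNA libraries and 174.5 and 173.5 CPM in control LNA libraries, with no overlap between the groups. Its log2 fold change of -0.27 (SE 0.08) just missed the threshold (edgeR adjusted p = 0.0501). It passed in 8 of the 12 other fits, among them DESeq2 (-0.28, adjusted p = 0.0375), the fit without LINC01432 LNA replicate 1 (-0.23) and that without LINC01432 LNA replicate 2 (-0.36). After GC correction it was -0.14 (edgeR adjusted p = 0.283). Values for H3-3B were 272 and 296 CPM in LINC01432 LNA libraries and 259 and 266 CPM in control LNA libraries. Its log2 fold change of 0.11 (SE 0.08) did not pass (edgeR adjusted p = 0.431), though it did without LINC01432 LNA replicate 1 (0.16, edgeR adjusted p = 0.00905). The 2 genes thus stood in another proportion: H3-3A had 0.505 and 0.509 counts per H3-3B count in LINC01432 LNA libraries, against 0.674 and 0.652 in control LNA libraries. This ratio was neither tested nor corrected for GC content, which was 41.5% for H3-3A and 49.4% for H3-3B. Their GC-corrected log2 fold changes were -0.14 and 0.14. Their summed level was 428 ± 26.2 CPM with the LINC01432 LNA and 437 ± 4.27 CPM with the control LNA (SD, n = 2 each), a difference smaller than the SD of the LINC01432 LNA libraries.

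Reads of the H3.3 pair and of the H2A.Z genes may also be counted in pseudogene copies elsewhere in the genome. By symbol 54 rows were taken, 47 of H3 and 7 of H2A.Z pseudogenes, of which 50 are annotated as processed. The symbols of the H3 rows do not say which H3 gene they derive from. Rows of H3 pseudogenes summed to 805 and 1053 counts in LINC01432 LNA libraries and 1327 and 1191 in control LNA libraries. H2A.Z pseudogenes summed to 147 and 205 counts in LINC01432 LNA libraries and 196 and 222 in control LNA libraries. Of 54 such rows 9 could be tested, and 1 was called. That row, H3P6, was picked out after its values were seen: it had 148 and 191 counts in LINC01432 LNA libraries and 320 and 264 in control LNA libraries (log2 fold change -0.59, edgeR adjusted p = 0.00891), and without control LNA replicate 1 it no longer passed (edgeR adjusted p = 0.0629).

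CENPA, the H3 variant that marks centromeres and is made mainly late in the cell cycle, was the 1 tested member whose groups overlapped. It had 16.4 and 16.9 CPM in LINC01432 LNA libraries and 15.2 and 16.8 CPM in control LNA libraries (log2 fold change 0.06, SE 0.10, edgeR adjusted p = 0.781). Some 6.96% of its exon bases overlap SLC35F6.

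H1-10, a linker histone (H1X) that binds where DNA enters and leaves the nucleosome, had 1763 and 2274 counts in LINC01432 LNA libraries and 1144 and 1255 in control LNA libraries. In CPM it was at 82.0 and 89.9 with the LINC01432 LNA and at 39.2 and 51.0 with the control LNA, without overlap. The 1.91-fold rise (log2 fold change 0.93, SE 0.11) passed (edgeR adjusted p = 0.000434). With 68.6% GC in its exons it too belongs to the highest GC group, and after GC correction the log2 fold change was 0.28 (SE 0.09) and did not pass (edgeR adjusted p = 0.0642). It was called in the 11 other alternatives, among them GC correction with a replicate block. Over all 13 fits the log2 fold change ran between 0.28 and 1.12. H1-10-AS1, an antisense gene, overlaps 22.9% of its exon bases and had 39 and 33 counts in LINC01432 LNA libraries and 38 and 28 in control LNA libraries. Whether the counting used strand is not given in the sources used here.

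**Figure D2:**
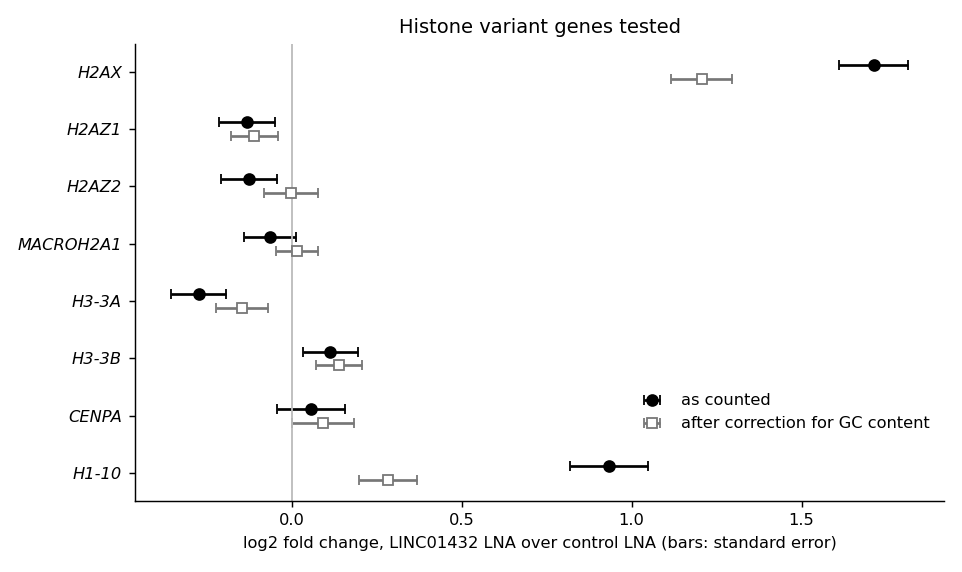
Log2 fold change of the 8 tested members, LINC01432 LNA over control LNA (horizontal axis, bars are the standard error), as counted (filled circles) and after correction for GC content (open squares). H2AX stayed far right of 0 at 1.71 and 1.21, H1-10 moved closer to 0 (0.93 and 0.28), and the other 6 lay between -0.27 and 0.14 in both fits.

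**Figure D3:**
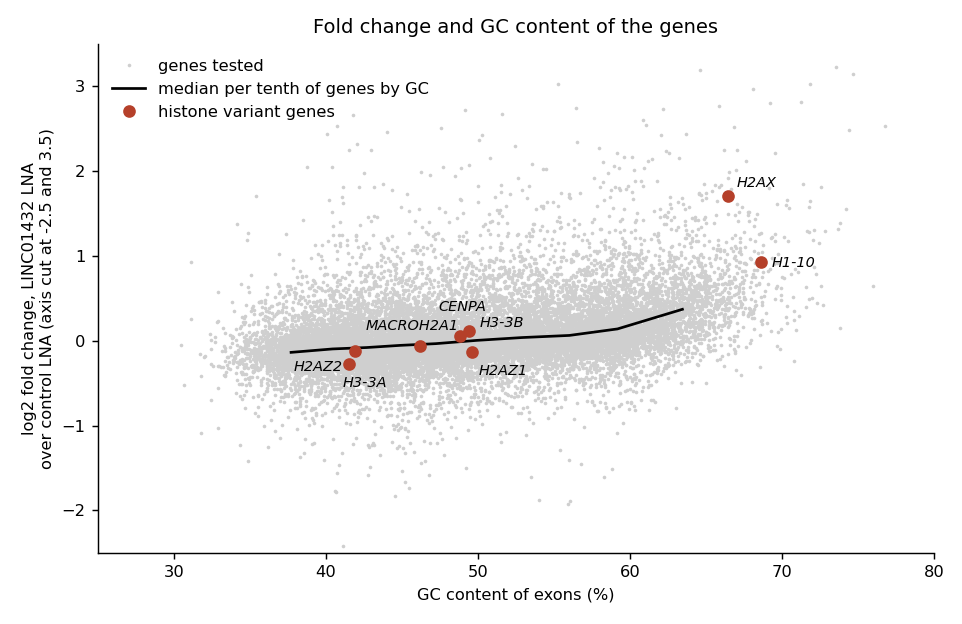
Log2 fold change, LINC01432 LNA over control LNA, against the GC content of the exons in percent for 17060 tested genes (grey), with the median of each of 10 equal GC groups (line) and the histone variants as large points. The vertical axis is cut at -2.5 and 3.5, which leaves out 7 genes. The line climbs to 0.37 in the highest GC group, where H2AX at 1.71 and H1-10 at 0.93 both lie above it.

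Levels of different genes were compared as CPM per kilobase of exons. The length took in every base annotated as exon in any transcript, from 1507 bases for H1-10 to 17730 for MACROH2A1. It is not the length of the mRNA made, and the order of the genes depends on it. In CPM alone, control LNA libraries had H3-3B at 263 ± 5.03, above H3-3A at 174 ± 0.760. MACROH2A1 stood there at 207 ± 4.67 CPM, close to H2AZ1 at 210 ± 0.0156 CPM. In LINC01432 LNA libraries H2AX led with 173 ± 6.39 (SD, n = 2 for this and the next values), followed by H2AZ1 at 83.3 ± 6.09 and H1-10 at 57.0 ± 3.70. H3-3B and H3-3A came next at 46.3 ± 2.75 and 45.8 ± 2.97 and overlapped each other, then H2AZ2 at 25.2 ± 1.80, MACROH2A1 at 11.2 ± 0.141 and CENPA at 8.40 ± 0.164. The order in control LNA libraries began with H2AZ1 at 91.3 ± 0.00676 CPM per kilobase, ahead of H3-3A at 55.3 ± 0.242 and H2AX at 52.8 ± 7.39, which overlapped each other. Below them stood H3-3B at 42.8 ± 0.819, H1-10 at 29.9 ± 5.55 and H2AZ2 at 27.5 ± 0.952 (the last 2 overlapping), MACROH2A1 at 11.7 ± 0.263 and CENPA at 8.08 ± 0.578. H2AX thus passed H2AZ1: it had 1.57 and 1.35 counts per H2AZ1 count in LINC01432 LNA libraries, against 0.365 and 0.445 in control LNA libraries.

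**Figure D4:**
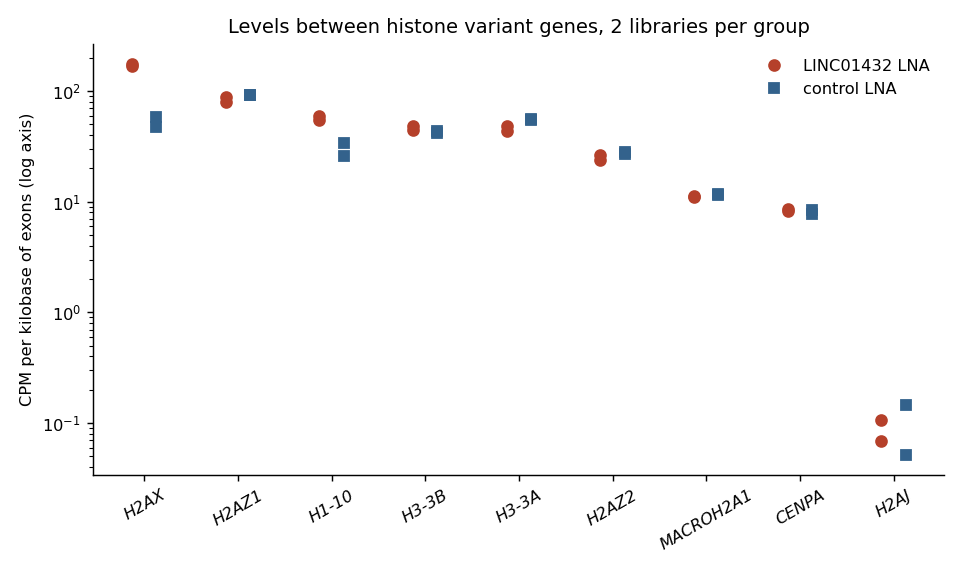
CPM per kilobase of exons (log axis) for the 9 genes, with 1 marker per library, LINC01432 LNA left of control LNA for each gene. H2AX and H1-10 are the genes whose LINC01432 LNA markers stand well above their control markers, and H2AJ lies about 2 orders of magnitude below CENPA, the next lowest gene.

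All 9 genes together summed to 1320 ± 46.9 CPM with the LINC01432 LNA and 1131 ± 16.7 CPM with the control LNA (SD, n = 2 each). Without H2AX the other 8 summed to 1041 ± 57.2 CPM with the LINC01432 LNA and 1046 ± 4.82 CPM with the control LNA (SD, n = 2 each), a difference smaller than the SD of the LINC01432 LNA libraries.

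The members were also set against the other genes of their families, summed in CPM. H2AX made up 5.31% and 5.59% of the H2A signal in LINC01432 LNA libraries and 1.69% and 2.14% in control LNA libraries, while the 17 replication-dependent H2A genes held 85.5% and 83.5% in LINC01432 LNA libraries and 86.1% and 85.5% in control LNA libraries. Per kilobase, over the 15 of those 17 genes with an annotated exon length, the share of H2AX was 2.31% and 2.46% in LINC01432 LNA libraries and 0.729% and 0.926% in control LNA libraries. H1-10 held 2.49% and 3.43% of the H1 signal in CPM in LINC01432 LNA libraries and 1.07% and 1.46% in control LNA libraries. In the H3 family, H3-3A held 3.70% and 4.36% in CPM in LINC01432 LNA libraries and 5.54% and 5.57% in control LNA libraries. H3-3B held 7.33% and 8.58% in CPM in LINC01432 LNA libraries and 8.23% and 8.55% in control LNA libraries. The labels name both poly(A) selection and ribosomal RNA removal, and since the stem-loop mRNAs of the clustered genes lack a poly(A) tail, the size of every share depends on which was used. Clustered genes of the same family also resemble each other in sequence, some closely, so how reads were split among those is uncertain. Of 58 replication-dependent histone genes tested, 12 were higher and 2 lower, where 7.5% of all genes were called higher and 4.37% lower. The median of the 58 genes was 0.12 on the log2 scale. After GC correction it was 0.02, with 11 higher and 3 lower, where 5.7% of all genes were called higher and 4.39% lower. Calls among the 58, as over all genes tested, became fewer without either control LNA replicate and more without either LINC01432 LNA replicate.

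Genes that deposit, read or modify the variants were counted in 6 lists with 80 genes. Of these, 78 could be tested: 4 were higher, 11 lower and 63 did not pass. Beside these and the single lists below, 7.5% of all genes tested were called higher and 4.37% lower. The median log2 fold change over the 78 genes was -0.07, beside 0.01 over all genes tested. After GC correction 2 of the 78 were higher and 8 lower, where 5.7% of all genes were called higher and 4.39% lower. Calls in the lists together, as over all genes tested, became fewer without either control LNA replicate and more without either LINC01432 LNA replicate.

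The list with the most lower genes was that of the H2AX kinases, readers and phosphatases. Of its 16 tested genes 1 was higher, 5 were lower and 10 did not pass, where 7.5% of all genes were called higher and 4.37% lower. The median log2 fold change of the list was -0.20, and -0.10 when GC-corrected. GC correction gave the same counts of calls, though the lower genes called were not all the same. As over all genes tested, the list had fewer calls without either control LNA replicate and more without either LINC01432 LNA replicate. MRE11, the nuclease of the break-sensing MRN complex, fell to 20.0 ± 1.39 CPM with the LINC01432 LNA, against 28.9 ± 0.120 CPM with the control LNA (log2 fold change -0.53, edgeR adjusted p = 0.00312). TP53BP1, which binds chromatin at breaks, fell to 29.1 ± 1.19 CPM with the LINC01432 LNA, against 41.0 ± 0.299 CPM with the control LNA (log2 fold change -0.49, edgeR adjusted p = 0.00300), and 28.7% of its exon bases overlap other genes. EYA1, a phosphatase for the last tyrosine of H2AX, was at 17.9 ± 0.150 CPM with the LINC01432 LNA and 23.6 ± 0.730 CPM with the control LNA (log2 fold change -0.40, edgeR adjusted p = 0.0148). RAD50, the partner of MRE11, was the 1 higher gene, with 13.2 ± 0.173 CPM with the LINC01432 LNA and 9.03 ± 1.09 CPM with the control LNA (log2 fold change 0.56, edgeR adjusted p = 0.0115). Since 79.7% of its exon bases overlap another annotated gene, its counts are uncertain. MRE11 and TP53BP1 were called in all 12 other fits. EYA1 no longer passed without control LNA replicate 1 (edgeR adjusted p = 0.229) or 2 (0.0967), and RAD50 without control LNA replicate 1 (0.268).

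Among 10 H3.3 and H3-H4 chaperone genes 1 was higher, 1 lower and 8 did not pass (median log2 fold change -0.10). Here too, as over all genes tested, calls were fewer without either control LNA replicate and more without either LINC01432 LNA replicate. HIRA, the H3.3 chaperone of active genes, rose to 12.6 ± 1.17 CPM with the LINC01432 LNA, against 8.04 ± 0.997 CPM with the control LNA (log2 fold change 0.65, edgeR adjusted p = 0.00792). It no longer passed without control LNA replicate 1 (0.50, edgeR adjusted p = 0.144), and 66.5% of its exon bases overlap C22orf39. ATRX, a remodeler that works with DAXX on H3.3, was at 60.2 ± 3.44 CPM with the LINC01432 LNA and 73.7 ± 2.14 CPM with the control LNA (log2 fold change -0.29, edgeR adjusted p = 0.0398). After GC correction the value for ATRX was -0.09 (edgeR adjusted p = 0.488), and it did not pass without control LNA replicate 1 (0.312) or 2 (0.473).

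In the CENP-A deposition and inner centromere list 1 of 18 genes was higher, 3 were lower and 14 did not pass (median log2 fold change -0.07), and after GC correction 0 of the 18 passed in edgeR (5 at an unadjusted p under 0.05), while DESeq2 without that correction called 1. CENPB, which binds a short repeat in centromeric DNA, was at 86.4 ± 4.44 CPM with the LINC01432 LNA and 70.6 ± 0.0773 CPM with the control LNA (log2 fold change 0.29, edgeR adjusted p = 0.0352), and GC correction turned its direction (-0.21, edgeR adjusted p = 0.0748). CENPI, a kinetochore subunit, had 14.8 ± 0.0704 CPM with the LINC01432 LNA and 18.9 ± 1.05 CPM with the control LNA (log2 fold change -0.35, edgeR adjusted p = 0.0382), and -0.22 when GC-corrected (edgeR adjusted p = 0.162). RSF1, a chromatin remodeling factor, had 52.2 ± 3.79 CPM with the LINC01432 LNA and 64.1 ± 1.18 CPM with the control LNA (log2 fold change -0.30, edgeR adjusted p = 0.0422), and -0.13 when GC-corrected (edgeR adjusted p = 0.272). The calls of CENPB, CENPI and RSF1 did not hold without control LNA replicate 1 (edgeR adjusted p = 0.509, 0.173 and 0.427) or without control LNA replicate 2 (0.484, 0.41 and 0.314).

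Of the 19 tested genes of H2A.Z exchange, the subunits of the SRCAP and p400 complexes and related factors, 0 passed in edgeR (2 at an unadjusted p under 0.05) and 0 in DESeq2, and their log2 fold changes lay between -0.18 and 0.23 (median 0.02). Other edgeR fits of this list called 1 with a replicate block, where 3862 of all 18680 genes tested were called. With GC correction and the block they called 4, where 3722 of all genes were called. Without either LINC01432 LNA replicate more were called, as over all genes tested. Of the 4 macroH2A partners 0 passed in edgeR (1 at an unadjusted p under 0.05) and 0 in DESeq2 (median -0.14). Here too, more were called without either LINC01432 LNA replicate. Median of ratios, a replicate block, and library sizes lacking mitochondrial, immunoglobulin and structured RNA genes called 1 each. Over all 18680 genes tested, these fits called 2155, 3862 and 2257. Among 11 general histone carriers 1 was higher, 2 were lower and 8 did not pass (median -0.06). Again as over all genes tested, more carriers were called without either LINC01432 LNA replicate. NAP1L4, a carrier of H2A-H2B dimers, fell to 66.3 ± 4.48 CPM with the LINC01432 LNA, against 102.5 ± 3.36 CPM with the control LNA (log2 fold change -0.63, edgeR adjusted p = 0.000662). SPTY2D1, a histone chaperone of the H3-H4 kind, fell to 19.4 ± 2.05 CPM with the LINC01432 LNA, against 29.6 ± 0.633 CPM with the control LNA (log2 fold change -0.61, edgeR adjusted p = 0.00213). TONSL, which binds newly made H4 on replicated chromatin, rose to 131 ± 4.94 CPM with the LINC01432 LNA, against 94.0 ± 3.46 CPM with the control LNA (log2 fold change 0.48, edgeR adjusted p = 0.00250). NAP1L4 and SPTY2D1 were called in all 12 other fits. TONSL was not called after GC correction (0.12, edgeR adjusted p = 0.269), without control LNA replicate 1 (0.182) or without control LNA replicate 2 (0.0627).

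**Figure D5:**
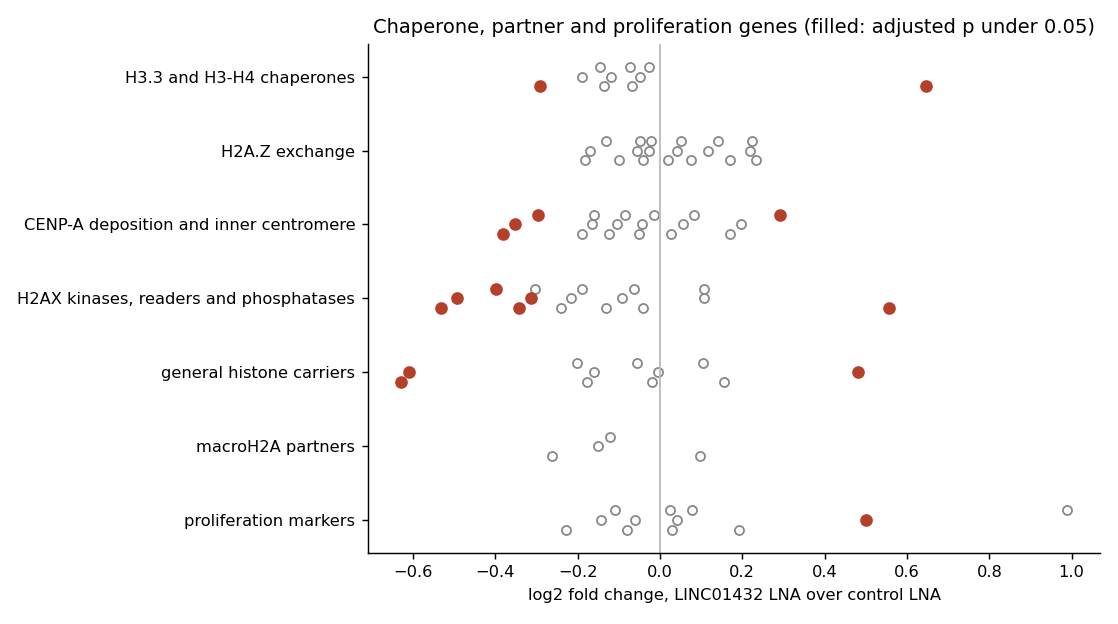
Log2 fold change, LINC01432 LNA over control LNA (horizontal axis), of each tested gene in the lists of chaperones, partners and proliferation markers, with 1 row per list and filled points for genes with an edgeR adjusted p under 0.05. The row of H2AX kinases, readers and phosphatases holds 5 filled points left of 0 and 1 right of it, and the row of H2A.Z exchange holds no filled point.

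Other histone variants were mostly silent, with 4 of 18 genes high enough to test, of which 1 was higher, 0 were lower and 3 did not pass (median log2 fold change 0.40). The called gene, H3-7, an H3 family gene, had 42 and 44 counts in LINC01432 LNA libraries and 21 and 13 in control LNA libraries (log2 fold change 1.54, edgeR adjusted p = 0.00808), and other genes overlap 37.4% of its exon bases. H3-7 was called in each of the 11 other edgeR fits, and DESeq2 gave it no adjusted p. Of 12 proliferation markers 1 was higher, 0 were lower and 11 did not pass (median 0.03). When GC-corrected, 2 were higher and 1 lower, where 5.7% of all genes were called higher and 4.39% lower. As over all genes tested, more markers were called without either LINC01432 LNA replicate and fewer without control LNA replicate 1. CCNA2, the cyclin of S and G2 phase, rose to 116 ± 3.40 CPM with the LINC01432 LNA, against 82.4 ± 3.98 CPM with the control LNA (log2 fold change 0.50, edgeR adjusted p = 0.00215), and it did not pass without control LNA replicate 1 (0.43, edgeR adjusted p = 0.165). Their part in the level of H2AX was not tested.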

How the data were processed

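The authors deposited raw counts, 1 whole number per gene and library, and the submitters' processing notes name bcl2fastq, STAR 2.7.11b, Subread featureCounts 2.0.8 and Salmon 1.10.0 with the GRCh38 build. The annotation release is not given in the sources used here, nor is the strand setting. The labels name both poly(A) selection and ribosomal RNA removal with random priming. Groups and replicate numbers came from the sample titles.

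Counts were tested in R 4.3.3 with edgeR 4.0.16 (quasi-likelihood F test, TMM, filterByExpr with a minimum count of 10 and total of 15, group as the only term, Benjamini-Hochberg threshold 0.05, biological coefficient of variation 7.13%). The fit was also run on simulated counts with the same spread for all genes and both groups and without a GC trend. That run did not check the test under the GC trend of these libraries. Standard errors came from the F statistic. The 97 spike-in and transgene rows, with at most 11 counts in a library, were left out. Libraries of a group differed by more than counting noise. The GC correction used a lowess trend (span 0.3) on exonic GC from GENCODE 29, which held 57356 of the gene IDs and 99.4% of the counts. Alternatives were DESeq2 1.42.0, other scalings, no filter, leaving out each library and a replicate block.

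The members and lists were chosen with earlier results of these data known. Named genes were all members, LINC01432, up to 4 called genes of smallest p per list (proliferation markers, other variants and 6 chaperone and partner lists), and the 3 genes nearest H2AX over 4 centred log2 CPM values. RefSeq promoters covered all 9 members. A gene and a marker that these rules cover are not reported here.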

Additional observations from a re-analysis of the deposited data

Results flagged for a closer look

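Rows for ERCC spike-in RNAs and transgene sequences, which no comparison uses, held 4 and 11 counts in the LINC01432 LNA libraries and 3 and 1 counts in the control LNA libraries. They were set apart for a closer look because the lower LINC01432 LNA library, with 4 counts, lay above the higher control library, with 3 counts. These counts are very small. The difference between the groups was not tested.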

How the results depend on the processing

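Of 18680 genes tested, 2218 were called, against 3862 with a replicate block, 3722 with GC correction and the block, and 766 to 5228 when 1 library was left out (766 without control LNA replicate 1). The 2 pairs of shared numbers are too few to show pairing (correlation of deviations 0.135). Of the members, 1 was called after GC correction and 2 to 5 with 1 library left out. The chaperone and partner genes called were 4 to 36 with 1 library left out, beside 15 in all. H3-3A had a log2 fold change of -0.28 by median of ratios, by library totals, by library sizes without mitochondrial, immunoglobulin and structured RNA genes and by DESeq2, -0.29 without a filter, -0.27 with the replicate block, and -0.36 to -0.23 with 1 library left out. The same leave-outs gave H2AZ1 -0.23 to -0.077, H2AZ2 -0.22 to -0.073 and H3-3B 0.034 to 0.16. H1-10 was at 0.28 after GC correction. CENPB turned to -0.21 after GC correction and to -0.21 with the replicate block added. The cause of these changes was not tested. H2AX and LINC01432 were called in all 13 fits. Depth limits H2AJ, and with 2 libraries a group the spread of 1 gene rests on that of the others.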

Other observations

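Other linker and core histone genes were looked up after their values had been seen. The replication-dependent linker histone genes H1-2 and H1-3 did not move with H1-10. H1-2 had 1163 and 861 CPM in LINC01432 LNA libraries and 1411 and 1314 CPM in control LNA libraries (log2 fold change -0.43, edgeR adjusted p = 0.0471). H1-3 had 481 and 364 CPM in LINC01432 LNA libraries and 579 and 543 CPM in control LNA libraries (log2 fold change -0.41, edgeR adjusted p = 0.0441). Neither passed with library totals, nor without control LNA replicate 1 (edgeR adjusted p = 0.353 and 0.332) or control LNA replicate 2 (0.151 and 0.146).

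H2AC25, an H2A gene on chromosome 1 outside the main histone cluster, had a larger fold change than H2AX. It had 133 and 126 CPM in LINC01432 LNA libraries and 29.2 and 39.6 CPM in control LNA libraries, a 3.78-fold rise (log2 fold change 1.92, edgeR adjusted p = 6.15e-06). Its exons hold 57.7% GC, and after GC correction the log2 fold change was 1.82. Next to it on the other strand, H2BC26, an H2B gene, had 185 and 163 CPM in LINC01432 LNA libraries and 90.9 and 88.0 CPM in control LNA libraries (log2 fold change 0.96, edgeR adjusted p = 6.29e-05). Both were called in each of the 13 fits.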
